A study of Homo sapiens with 12 samples.

Results

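The genes described are 9 antigen presentation genes of both HLA classes, taken by symbol from 63241 genes counted in each library. There were 4 class I members, HLA-B, HLA-C, B2M and TAP1, and 5 class II members, HLA-DRA, HLA-DRB1, HLA-DPA1, CD74 and CIITA. Poly-A RNA was sequenced in 12 libraries from the prostate cancer cell line MDA-PCa-2b, an established line of human origin, although the growth protocol also names MDA-PCa-2a. The libraries form 4 groups of 3, labelled NT, KD1 (DHODH knock down 1), KD2 (DHODH knock down 2) and KDR (the rescue of knock down 2). DHODH is the mitochondrial enzyme of pyrimidine synthesis that oxidises dihydroorotate. All groups were grown in BRFF-HPC1 medium with fetal bovine serum. The labels do not say what NT stands for, which kind of construct was used, how the rescue was made, or whether the libraries of a group came from separate cultures, so the spread behind each p-value is that between libraries and could be technical.

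HLA class I molecules pair a polymorphic heavy chain, such as HLA-B or HLA-C, with the invariant light chain B2M, and display peptides cut in the cytosol to CD8 T cells. TAP1 and TAP2 form the transporter that carries those peptides into the endoplasmic reticulum. HLA class II molecules pair an alpha chain (HLA-DRA, HLA-DPA1) with a beta chain (such as HLA-DRB1), are held by the invariant chain CD74 until they reach the endosome, and display peptides to CD4 T cells. CIITA is the coactivator on which class II transcription depends in B cells, dendritic cells and cells exposed to interferon-gamma. Epithelial cells usually express class I and little class II.

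The proximal promoters of 4 class I members are shown because these genes did not move together. RefSeq (GRCh38.p14) entries, running from 250 bases before to 50 bases after the annotated start, were matched for 7 of the 9 members; HLA-DRA and CIITA were not matched. Each stretch reads 5′ to 3′ on the gene's strand, and capitals mark matches to the motifs below. The first 3 stretches run from 200 to 115 bases before the start, where the gene itself has no annotated exon, and the B2M stretch of 30 bases runs from 152 to 123 bases before the RefSeq start, inside a longer first exon of the Ensembl annotation.
HLA-B, chr6:31357294-31357379, minus strand: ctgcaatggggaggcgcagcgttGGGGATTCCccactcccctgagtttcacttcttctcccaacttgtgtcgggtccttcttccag
HLA-C, chr6:31272207-31272292, minus strand: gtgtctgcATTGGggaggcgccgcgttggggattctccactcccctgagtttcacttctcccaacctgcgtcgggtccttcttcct
TAP1, chr6:32853819-32853904, minus strand: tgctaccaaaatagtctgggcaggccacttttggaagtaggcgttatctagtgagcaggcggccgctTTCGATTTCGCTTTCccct
B2M, chr15:44711365-44711394, plus strand: gactctaaGAAAAGGAAACTGAAaacggga

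Motifs were searched on both strands of the whole entries and were chosen with these sequences in view. The core of the NF-kB site, GGGNNTTCC, was found 177 to 169 bases before the start of HLA-B and was not found as these letters in HLA-C, although the 2 promoters were identical at 88.5% of 304 aligned columns. It was present in 6.58% of 35116 promoters and in 3 of the 7 members. The core of an interferon response element, GAAANNGAA, occurred as 2 overlapping matches in TAP1 (133 to 119 bases before the start, on the opposite strand) and in B2M (144 to 130 bases before the start). It was present in 8.11% of all promoters and in 4 of the 7 members. HLA-B and HLA-C did not hold it as these letters, and other spellings of the element were not searched. The Y box core, ATTGG, was present in 34.6% of promoters and in 6 of the 7 members. The core of a gamma-activated site, TTCNNNGAA, was present in 7.66% of promoters and in 0 of the 7 members. These matches describe letters only.

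Across the libraries, total counts ran from 23786288 to 38240369, so that 3 counts, the floor used here, correspond to 0.0785 to 0.126 CPM (counts per 1e6 counts), which are scaled by the trimmed mean of M values (TMM). After a filter on low counts 19373 genes were tested with edgeR's quasi-likelihood test, and a gene was called at a Benjamini-Hochberg adjusted p, over all genes tested, under 0.05. Spread between replicates, as a biological coefficient of variation, was 15.7% for NT and 5.52% to 7.16% for the other groups. DHODH itself had a mean of 10.5 ± 2.5 CPM in NT (SD, n = 3), against 10.3 ± 0.67 for KD1, 13.1 ± 1.7 for KD2 and 18.6 ± 0.92 for KDR. By edgeR it was not called in KD1 against NT (adjusted p 0.97) or in KD2 against NT (adjusted p 0.097), and it was higher in KDR against KD2 (0.51 on the log2 scale, adjusted p 0.0064) and against NT (0.82, adjusted p 0.0001). The RNA thus does not check the knock down labels, and directions below belong to libraries as labelled.

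Class I RNA was abundant in all groups, and 1 class II gene, HLA-DRA, was as abundant per exon length. In TPM, a level per exon length scaled to the same sum in each library, HLA-C was at 416 ± 32.7 in NT, HLA-DRA at 387 ± 22.9 and B2M at 359 ± 13.6 (SD, n = 3). Neighbours in that order overlapped between NT libraries. HLA-B followed at 39.6 ± 2.6 TPM and TAP1 at 35.1 ± 1.4 TPM, apart from each other and from the genes above. The other class II members were near the floor: CD74 at 0.327 TPM and CIITA at 0.0677 TPM in NT. Their exon lengths are 4526 and 22553 bases, and in CPM they were close, at 0.362 for CD74 and 0.385 for CIITA in NT. In KD2 the order had changed: HLA-DRA led at 369 ± 5.1 TPM, with HLA-C at 310.2 ± 15.5 and B2M at 233 ± 6.0, all apart. In KDR HLA-DRA also led, at 808 ± 26.2 TPM, with HLA-C at 303 ± 10.2 and B2M at 241 ± 8.1, all apart. TAP1, at 32.6 ± 2.1 TPM, stood above HLA-B, at 23.2 ± 1.8 TPM, in KDR, while the libraries of the pair overlapped in KD2. The place of HLA-DRA depends on the annotated exon lengths, 1244 bases for HLA-DRA, 2507 for HLA-C and 3121 for B2M. In CPM, which leaves out length, HLA-DRA was below both in NT (119 against 259 for HLA-C and 277 for B2M). It was also below both in KD2 (115 against 196 and 183) and above both in KDR (244 against 184 and 183).

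**Figure D1:**
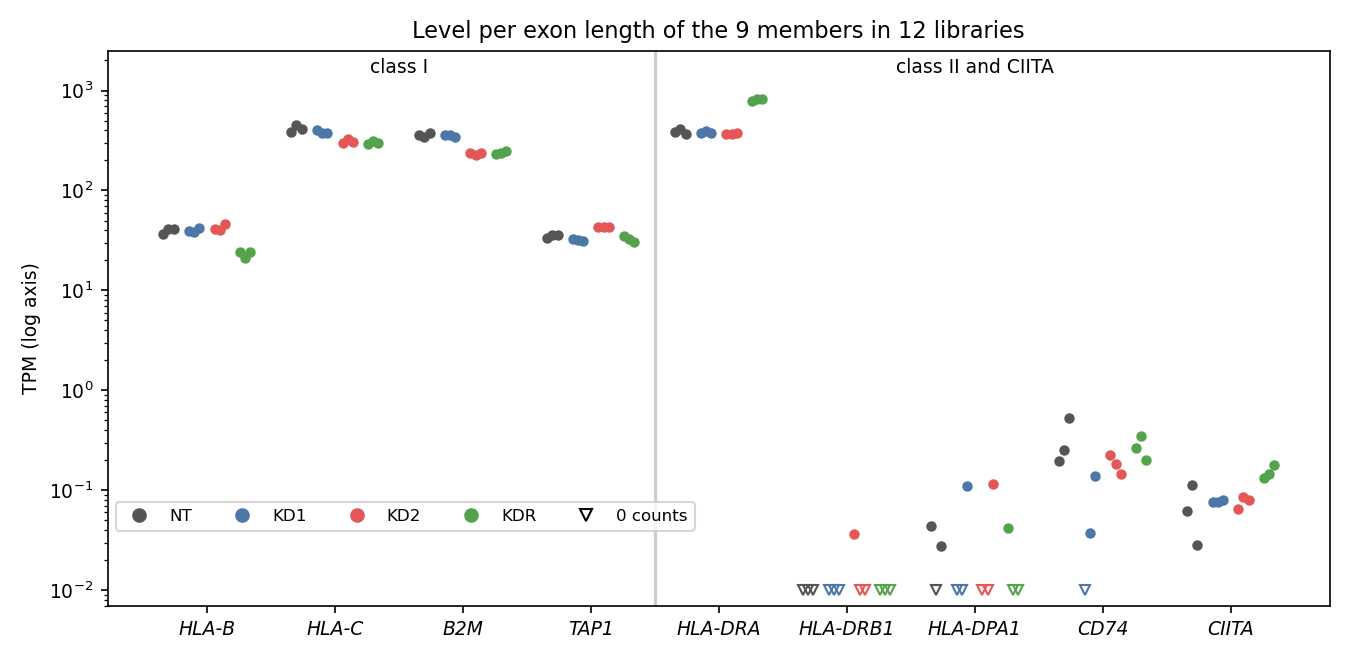
TPM on a log axis for the 9 members in each of the 12 libraries, coloured by group; open triangles mark libraries with 0 counts. HLA-DRA lies near HLA-C and B2M in NT and KD1 and above both in KD2 and KDR, while HLA-DRB1, HLA-DPA1, CD74 and CIITA stay below 1 TPM in every library.

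The class II members other than HLA-DRA and CIITA were hardly detected. HLA-DRB1, a beta chain that pairs with HLA-DRA, had 1 count in all 12 libraries together, in KD2 replicate 1. The other 11 libraries, at 0, allow at most 0.126 CPM, counting error only. HLA-DPA1, the alpha chain of HLA-DP, had 3 counts over the NT libraries, 6 over KD1, 4 over KD2 and 2 over KDR. CD74, the invariant chain, had 7, 9 and 15 counts in the NT libraries, 0, 1 and 6 in KD1, 9, 6 and 4 in KD2, and 10, 12 and 6 in KDR. In CPM the KD1 libraries lie at 0 to 0.156, below the lowest library of the other groups at 0.167, while NT, KD2 and KDR overlap. Those 2 values stand for 6 counts in KD1 replicate 3 and 4 counts in KD2 replicate 3, so the gap rests on depth scaling. Libraries did not overlap for 9.405% of all genes tested in KD1 against NT and for 49.73% in KD2 against KD1. HLA-DRB1, HLA-DPA1 and CD74 did not pass the filter and were not tested. HLA-DRB1 is highly polymorphic and has near-identical copies, and reads that map to many places were not counted, so a count near 0 is an uncertain measure of it.

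The whole list of 18 leukocyte markers (B, T and myeloid cells) was close to the floor beside HLA-DRA. Of these, 7 were at 0 in all 12 libraries, among them CD3E and CD68, and no marker exceeded 0.710 CPM in any library. Their summed level was 0.839 to 1.75 CPM for NT, 0.283 to 0.582 for KD1, 0.660 to 1.29 for KD2 and 0.935 to 0.987 for KDR, so the KDR libraries lay inside the range of NT. The luminal prostate markers, KLK3 among them, were high in every library and changed between groups. Their summed CPM was 17840 to 21090 for NT, 17900 to 18310 for KD1, 11100 to 11430 for KD2 and 17970 to 18370 for KDR. All 9 were called lower in KD2 against NT, beside 18.2% of all genes tested. EPCAM and CDH1, of epithelial junctions, summed to 408.8 to 431 CPM in NT and 406.2 to 427 for KD1. Their sum was 116 to 125 CPM for KD2 and 333 to 336 for KDR. CDH1 made up most of the fall in KD2, from a mean of 304 CPM in NT to 29.8, while EPCAM went from 113 to 89.6. Both genes were called lower in KD2 and in KDR against NT, beside 18.2% and 14.5% of all genes tested. The part of these markers in the member differences of KD2 and KDR was not tested, and in bulk RNA fewer cells of a kind and less RNA per cell cannot be told apart.

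KD1 against NT compares the libraries labelled as the first knock down with those of NT. No member was called, and the background was 0% of all genes tested. edgeR gave 1185 genes at an unadjusted p under 0.05 with a smallest adjusted p of 0.794, and DESeq2 also called 0 genes. The largest member difference among those with over 1 CPM was that of TAP1, at -0.15 on the log2 scale (95% interval -0.31 to 0.0035; edgeR adjusted p 0.79). TAP1 was at 39.0, 44.0 and 40.6 CPM in NT and 38.4, 36.6 and 36.0 CPM in KD1. The 2 groups did not overlap, which held for 9.405% of all genes tested. For HLA-DRA the interval of KD1 against NT ran from -0.17 to 0.10, and for B2M from -0.14 to 0.07.

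KD2 against NT does the same for the libraries labelled as the second knock down. Here B2M and HLA-C fell, TAP1 rose, and HLA-B and HLA-DRA were not called. The background was 35.9% of genes called, 17.8% higher and 18.2% lower, against 1 of 6 tested members higher and 2 lower. B2M was at 273, 281 and 277 CPM in NT and at 184, 177 and 188 CPM in KD2. The libraries of the 2 groups lay far apart, and the log2 fold change was -0.60 (SE 0.051, adjusted p 2.7e-09 by edgeR). HLA-C was at 237, 293 and 245 CPM in NT, where replicate 2 was highest, and at 186, 205 and 195 CPM in KD2. All KD2 libraries were below all NT libraries, and edgeR gave -0.40 on the log2 scale (SE 0.069, adjusted p 6.2e-05). TAP1, the peptide transporter subunit, was at 51.1, 50.7 and 51.4 CPM in KD2, above each NT library. Its log2 fold change was 0.31 (SE 0.075, adjusted p 0.0022 by edgeR).

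HLA-B had 41.6, 49.3 and 45.3 CPM in NT and 47.2, 46.8 and 53.8 CPM in KD2. The groups overlapped, and the difference of 0.12 on the log2 scale had an interval of -0.06 to 0.29. HLA-DRA had 118, 132 and 108 CPM in NT and 114, 115 and 118 CPM in KD2, all within the NT range. Its difference of -0.05 had an interval of -0.19 to 0.08. Libraries did not overlap for 42.46% of all genes tested in this comparison.

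KD2 against KD1 compares the knock downs with each other. The background was 35.5%, with 17.9% higher and 17.5% lower, and of 6 tested members 1 was higher and 2 lower. B2M was at 274, 272 and 266 CPM in KD1, so that KD2 was lower by a log2 fold change of -0.56 (edgeR adjusted p 6.7e-09). HLA-C, at 251, 232 and 229 CPM in KD1, was also lower in KD2, by -0.28 (edgeR adjusted p 0.0026). TAP1 was higher in KD2 by 0.47 (edgeR adjusted p 3.4e-05). In the KD1 libraries HLA-DRA stood at 117, 119 and 115 CPM, which overlapped with KD2.

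**Figure D2:**
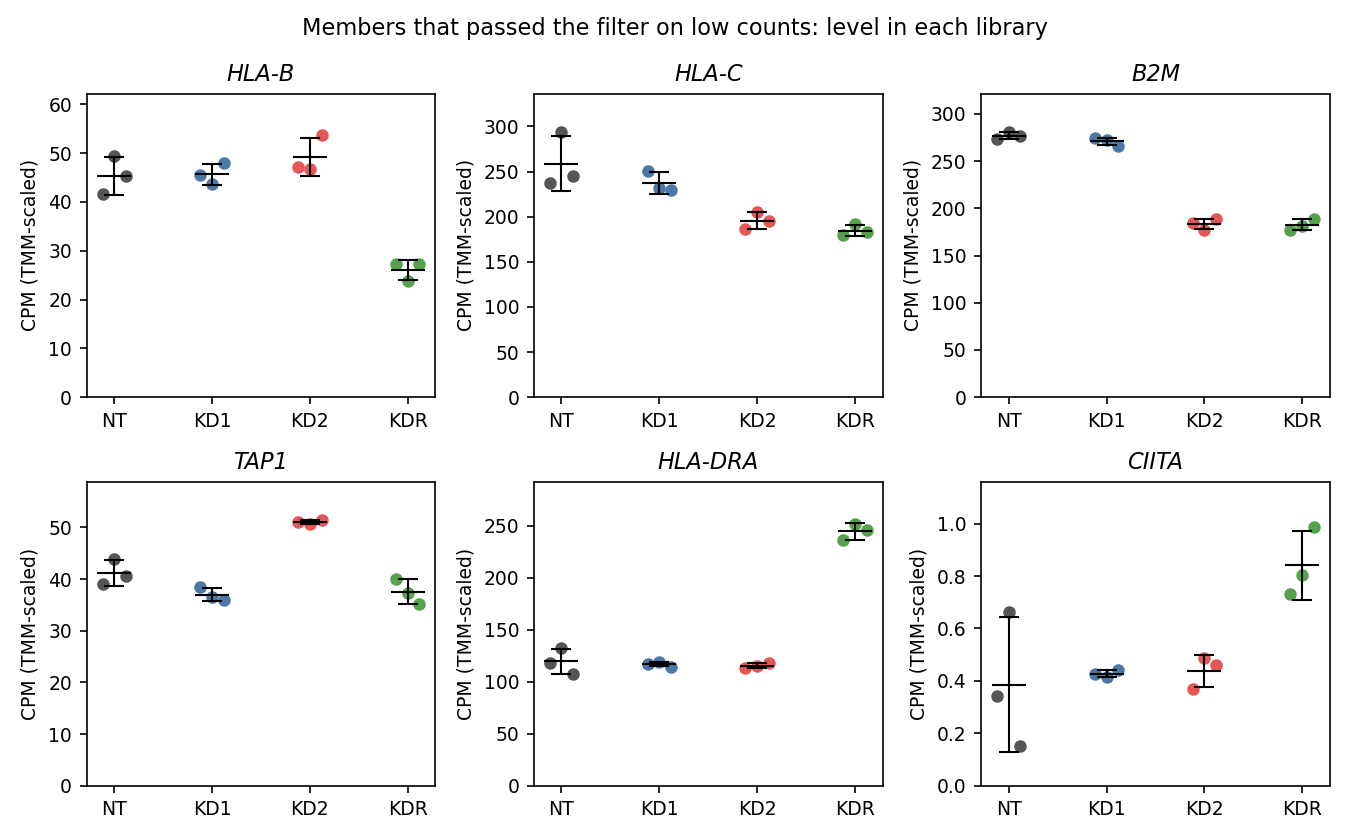
TMM-scaled CPM of the 6 members that passed the filter, 1 point per library, with the mean and SD of each group of 3 as bars. B2M and HLA-C are lower in KD2 and KDR than in NT and KD1, TAP1 is highest in KD2, HLA-B is lowest in KDR, and HLA-DRA is highest in KDR at 236 to 251 CPM.

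KDR against KD2 compares the libraries labelled as the rescue with those of the second knock down. HLA-DRA rose and HLA-B and TAP1 fell, while B2M and HLA-C were not called. The background was 32.4%, with 15.3% higher and 17.1% lower, against 1 of 6 members higher and 2 lower. HLA-DRA reached 236, 251 and 246 CPM in KDR, each above every other library of the study. Its log2 fold change was 1.08 (SE 0.065, edgeR adjusted p 7.3e-12), a level 2.12 times that of KD2. HLA-B dropped to 27.3, 23.8 and 27.3 CPM in KDR, below every library of the other groups, and edgeR gave -0.91 on the log2 scale (SE 0.087, adjusted p 2.3e-08). TAP1 was at 40.1, 37.4 and 35.2 CPM in KDR, below each KD2 library, with a log2 fold change of -0.44 (edgeR adjusted p 7.6e-05).

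B2M had 177, 181 and 189 CPM in KDR. It overlapped with KD2, with a difference of -0.005 on the log2 scale and an interval of -0.11 to 0.10. HLA-C had 179, 191 and 183 CPM in KDR and also overlapped with KD2, with an interval of -0.23 to 0.06. Libraries did not overlap for 49.87% of all genes tested between KDR and KD2, and for 49.73% between KD2 and KD1.

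KDR against NT shares its libraries with the comparisons above. The background was 27.5%, with 13.0% higher and 14.5% lower, and 1 of 6 tested members was higher and 3 lower. HLA-DRA was higher by 1.03 on the log2 scale (edgeR adjusted p 3.6e-11). HLA-B was lower by a log2 fold change of -0.80 (edgeR adjusted p 2.8e-07), B2M by -0.60 (edgeR adjusted p 5.0e-09) and HLA-C by -0.49 (edgeR adjusted p 1.0e-05). TAP1 overlapped between KDR and NT, with a difference of -0.13 and an interval of -0.29 to 0.03. No overlap between the libraries was found for 38.2% of all genes tested.

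**Figure D3:**
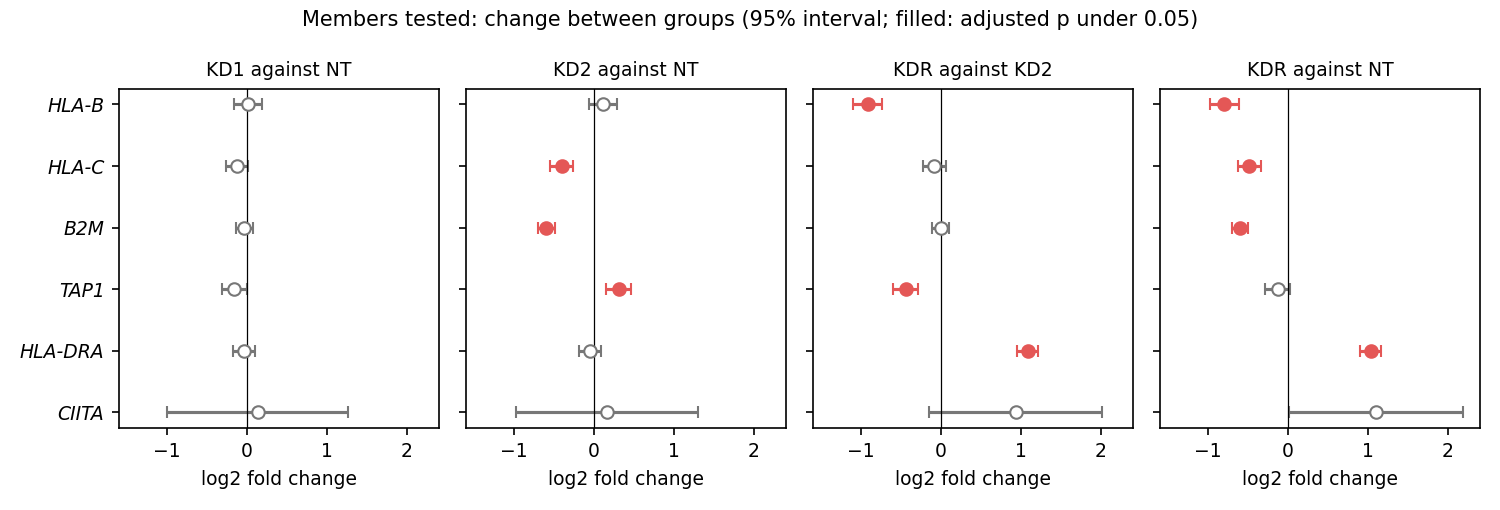
Log2 fold changes of the 6 tested members with 95% intervals from the edgeR fit, in 4 comparisons; filled points have an adjusted p under 0.05. HLA-B and HLA-DRA are called in opposite directions in KDR against KD2 and in KDR against NT, while B2M and HLA-C are called lower in KD2 and KDR against NT.

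CIITA, the class II coactivator, was measured with few counts. It had 11, 20 and 4 counts in the NT libraries, 12, 10 and 17 for KD1, 13, 14 and 11 for KD2 and 25, 25 and 27 for KDR. In CPM these are 0.342, 0.661 and 0.152 for NT, 0.425, 0.416 and 0.442 for KD1, 0.369, 0.486 and 0.459 for KD2 and 0.731, 0.806 and 0.987 for KDR. All KDR libraries were above all others. Libraries did not overlap for 49.87% of all genes tested in KDR against KD2 and for 38.2% in KDR against NT. The gene also passed the filter in the fit of NT and KD1 alone, without KDR. The difference was not called: 0.94 for KDR against KD2 (SE 0.52, edgeR adjusted p 0.18) and 1.10 for KDR against NT (SE 0.53, edgeR adjusted p 0.13). Without NT replicate 2, the highest NT library, the latter became 1.72 with an edgeR adjusted p of 0.047. Exons of other genes, DEXI among them, cover 21.6% of the CIITA exon length, and reads over exons of 2 genes were not counted.

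Class II was set against class I in each library as the summed TPM of HLA-DRA, HLA-DRB1 and HLA-DPA1 over that of HLA-B and HLA-C. HLA-DRA makes up nearly all of the upper sum. The ratio was 0.916, 0.834 and 0.804 for NT, 0.854, 0.939 and 0.904 for KD1, 1.08, 1.00 and 1.06 for KD2, and 2.45, 2.48 and 2.51 for KDR. The KDR libraries stood above all others, and KD2 stood above NT and KD1. The mean was 2.48 ± 0.031 in KDR and 1.05 ± 0.039 in KD2 (SD, n = 3), a fold of 2.37. KD2 was 1.23 times NT. For these folds the two-sided exact permutation p was 0.1, the smallest that 3 against 3 allows, and 0.125 after adjustment over 5 comparisons. KD1 against NT had a fold of 1.06 and an exact permutation p of 0.3.

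**Figure D4:**
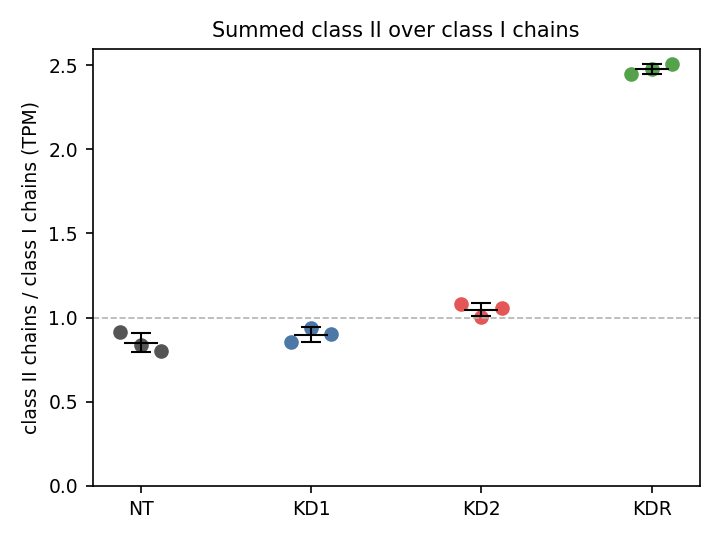
Ratio of summed class II to summed class I chain TPM per library, with the mean and SD of each group of 3; the dashed line marks a ratio of 1. In TPM, NT and KD1 lie below 1, KD2 between 1.00 and 1.08, and KDR between 2.45 and 2.51. The place against 1 depends on the exon lengths used.

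Among the class I chains, HLA-B and HLA-C did not keep their ratio. HLA-B was at 0.0955 ± 0.0045 of the HLA-C level (TPM) in NT, 0.105 ± 0.0078 for KD1, 0.137 ± 0.013 in KD2 and 0.0769 ± 0.0084 in KDR. HLA-C over B2M was 1.16 ± 0.12 in NT, 1.09 ± 0.042 for KD1, 1.33 ± 0.098 for KD2 and 1.26 ± 0.055 for KDR. The KD1 libraries lay below those of KD2 and KDR, and the other pairs of groups overlapped. The HLA-B gene (chr6:31353872-31367067, minus strand) shares 47.3% of its exon length with other annotated genes, a microRNA among them, and TAP1 (chr6:32845209-32853816, minus strand) shares 14.2% with PSMB8-AS1. HLA-C (chr6:31268749-31272130, minus strand), B2M (chr15:44711358-44718851, plus strand) and HLA-DRA (chr6:32439878-32445046, plus strand) share none. These coordinates are those of the files' Ensembl annotation on GRCh38, and counts are over all exons of a gene, untranslated parts included. Class I heavy chains are polymorphic and alike in sequence, so their levels, counted against the reference, are less sure than those of B2M or HLA-DRA.

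For the lists that follow, the background is 35.9% of all genes tested called in KD2 against NT, 32.4% in KDR against KD2 and 27.5% in KDR against NT. Other class I chains were given by a list of 10 genes, of which 6 were tested. In KD2 against NT 1 was higher and 2 lower, in KDR against KD2 0 higher and 2 lower, and in KDR against NT 1 higher and 3 lower, few genes to set against those shares. FCGRT, the neonatal Fc receptor chain that pairs with B2M, was at 1.52 ± 0.34 CPM in NT, 6.66 ± 1.1 in KD2 and 0.328 ± 0.12 in KDR. It rose in KD2 against NT by 2.13 (edgeR adjusted p 1.3e-06) and fell in KDR against KD2 by 4.34 (edgeR adjusted p 4.0e-10). MR1, which presents vitamin B metabolites, fell in KD2 against NT by 0.30, from 45.5 ± 1.1 to 37.1 ± 1.8 CPM. HLA-E was at 28.4 ± 4.3 CPM in NT and 24.7 ± 1.8 in KD2, and was not called. MICA, a stress ligand of NKG2D, was called higher in KDR against NT, at 6.06 ± 0.73 against 3.90 ± 1.1 CPM. HLA-F stayed at or under 0.393 CPM in every group mean and was not called.

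Peptide supply and loading for class I, a list of 16 genes that were all tested, had 7 higher and 2 lower in KD2 against NT, where 17.8% of all genes were higher and 18.2% lower. The median log2 fold change was 0.21, and that of all genes tested was -0.01. In KDR against KD2 0 were higher and 13 lower, beside 15.3% and 17.1% of all genes, with a median of -0.39. In KDR against NT 0 were higher and 6 lower, beside 13.0% and 14.5%. TAP2, the partner of TAP1, was at 33.9 ± 7.1 CPM in NT, 61.6 ± 5.7 in KD2 and 33.1 ± 1.9 in KDR. It increased by 0.86 in KD2 against NT (edgeR adjusted p 2.3e-06) and fell by 0.90 in KDR against KD2 (edgeR adjusted p 1.6e-06). ERAP2, an aminopeptidase that trims peptides in the endoplasmic reticulum, was at 26.4 ± 1.7, 41.8 ± 1.4 and 17.0 ± 1.6 CPM in the same groups. It increased by 0.66 in KD2 against NT and fell by 1.30 in KDR against KD2. PSME2, a proteasome activator subunit, rose by 0.42 in KD2 against NT. The chaperones CALR and CANX, which fold class I chains among other glycoproteins, rose by 0.34 and 0.23. TAPBPL, a tapasin-related peptide editor, went the other way, at 5.02 ± 1.5 CPM in NT, 1.70 ± 0.36 in KD2 and 0.972 ± 0.22 in KDR, and fell by 2.36 in KDR against NT (edgeR adjusted p 5.3e-07).

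**Figure D5:**
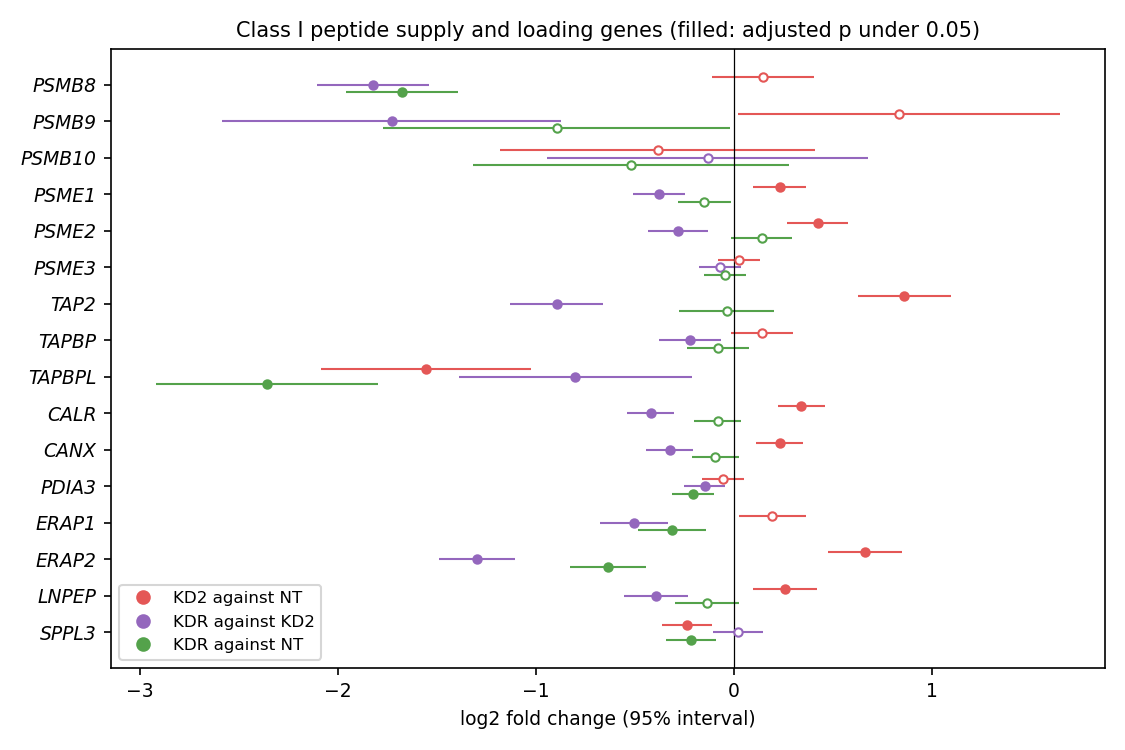
Log2 fold changes with 95% intervals of the 16 class I peptide supply and loading genes in 3 comparisons that share libraries; filled points have an edgeR adjusted p under 0.05. In KDR against KD2 13 of 16 are called lower, while in KD2 against NT 7 are called higher and 2 lower.

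The list of other class II chains and class II processing held 20 genes, of which 14 were tested. In KD2 against NT 7 were higher and 5 lower (35.9% of all genes called), in KDR against KD2 3 higher and 4 lower (32.4%), and in KDR against NT 3 higher and 4 lower (27.5%). HLA-DMA, which loads peptides onto class II, was at 7.17 ± 1.05 CPM in NT, 14.5 ± 0.58 in KD2 and 9.28 ± 0.12 in KDR. It increased by 1.02 in KD2 against NT (edgeR adjusted p 3.5e-06). HLA-DQB2, a chain that shares sequence with HLA-DQB1, was at 2.46 ± 0.33, 4.88 ± 0.14 and 4.54 ± 0.49 CPM in these groups. Of the endosomal proteases, CTSD fell in KD2 against NT by 0.92, CTSL by 0.78, CTSB by 0.47 and LGMN by 0.46. CTSV, at 0.187 ± 0.21 CPM in NT and 1.29 ± 0.43 in KD2, rose (edgeR adjusted p 0.0012), and CTSS was not called (edgeR adjusted p 0.65), both named after their values were seen. CTSD went from 111.2 ± 9.2 CPM in NT to 59.0 ± 2.9 in KD2 and 71.7 ± 3.0 in KDR. Of the chains that pair with class II members, HLA-DPB1 had 0 counts in all 12 libraries and HLA-DRB5 had 4, named here after their values were seen.

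Transcription factors of HLA genes formed a list of 15, all tested. In KD2 against NT 4 were higher and 1 lower (35.9% of all genes called), in KDR against KD2 0 higher and 4 lower (32.4%), and in KDR against NT 3 higher and 3 lower (27.5%). The share of the list called was a little below that of all genes in KD2 against NT and in KDR against KD2. In KDR against NT it was above that of all genes. These are few genes to set against those shares. NLRC5, the class I counterpart of CIITA, was at 5.01 ± 1.5 CPM in NT, 3.31 ± 0.24 in KD2 and 2.06 ± 0.20 in KDR. It fell by 0.60 in KD2 against NT (edgeR adjusted p 0.033) and by 1.28 in KDR against NT (edgeR adjusted p 0.00014). RFX5, a subunit of the RFX complex that binds HLA promoters, rose by 0.33 in KDR against NT, from 43.6 ± 1.5 to 54.6 ± 1.8 CPM, and RFXAP, another subunit, by 0.37. IRF1, an interferon-induced factor, was at 3.92 ± 0.44 CPM in NT, 8.39 ± 0.17 in KD2 and 3.59 ± 0.39 in KDR. It increased by 1.09 in KD2 against NT (edgeR adjusted p 7.6e-06). NFKB1, the p105 and p50 subunit gene of NF-kB, rose by 0.33 in KD2 against NT. EZH2, the methyltransferase of the repressive mark H3K27me3, rose by 0.70 in KD2 against NT and by 0.75 in KDR against NT.

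The interferon-gamma receptor pathway list held 15 genes, of which 11 were tested, and shares 2 genes with the list above, IRF1 among them. In KD2 against NT 3 were higher and 1 lower (35.9% of all genes called), in KDR against KD2 0 higher and 3 lower (32.4%), and in KDR against NT 0 higher and 2 lower (27.5%). The share of the list called was near that of all genes in KD2 against NT and below it in the other 2, again with few genes. GBP2, an interferon-induced GTPase, had 3.24 ± 0.46 CPM for NT, 3.14 ± 0.38 for KD1, 14.4 ± 1.3 for KD2 and 1.72 ± 0.13 for KDR (SD, n = 3). It increased by 2.15 in KD2 against NT (edgeR adjusted p 4.8e-10) and fell by 3.06 in KDR against KD2 (edgeR adjusted p 3.6e-12). JAK1, the receptor kinase, rose by 0.49 in KD2 against NT, and PTPN2, a phosphatase of the pathway, fell by 0.28. IFNGR1, the receptor chain, was at 35.9 ± 2.0 CPM in NT and 32.7 ± 1.3 in KD2, and SOCS3, an inhibitor, at 1.01 ± 0.49 and 0.584 ± 0.23, and neither was called. In KD1 against NT 0 genes of these 5 lists were called.

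The genes whose log2 CPM followed the members most closely over the 12 libraries were taken from protein-coding genes of at least 5 CPM outside the lists. For HLA-DRA these were IP6K1 (Pearson r 0.993), LENG8 (0.991) and TSC22D3 (0.987). IP6K1 stood at 96.0 CPM in NT, 92.0 in KD2 and 172.1 in KDR. For HLA-B they were TSPAN3 (0.977), CPT1A (0.976) and CDCP1 (0.974), and CPT1A stood at 216 CPM in NT, 220 in KD2 and 157.5 in KDR. For CIITA they were DLG4 (0.956), IL18BP (0.956) and SCNN1D (0.944). These correlations describe 12 libraries in 4 groups that share their group levels.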

How the data were processed

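The authors deposited raw counts per gene for each library. Per the file headers, featureCounts 1.6.4 summed exons per gene against Ensembl release 111 (GRCh38), and its command sets no strand, pair or multi-mapping option. The submitters' processing notes also name FastQC, cutadapt and HISAT2, with versions not given in the sources used here. Both ends of a read pair were thus counted separately, so counts are not independent molecules and floors cover counting error only.

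Counts were tested with edgeR 4.0.16 in R 4.3.3: filterByExpr by group, TMM scaling, 1 quasi-likelihood model of the group over all 12 libraries, and Benjamini-Hochberg adjustment over the 19373 genes tested. The SE of a log2 fold change is its size over the root of the F statistic. TPM used the deposited exon lengths. The script was first tested on simulated data. Genes outside the members were named by a rule: the 6 of each list with the smallest adjusted p in KD2 against NT, any gene called in KD1 against NT, DHODH, and the 3 genes most like HLA-B, HLA-DRA and CIITA. A gene that this rule names is not reported here. The members and lists were chosen with earlier results of these data known. Alternatives were DESeq2 1.42.0, its size factors in edgeR, no filter, at least 1 CPM in 3 libraries, only the groups compared, a replicate block, a fold threshold, CPM in place of TPM for the ratio, and leaving out each library.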

Additional observations from a re-analysis of the deposited data

Results flagged for a closer look

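The effect of KD2 against NT differed from that of KD1 against NT for 3 members, by edgeR's test of KD2 against KD1, in which the shared NT libraries cancel. The difference was -0.279 on the log2 scale for HLA-C (adjusted p 0.0026), -0.5635 for B2M (adjusted p 6.7e-09) and 0.4664 for TAP1 (adjusted p 3.4e-05). All 3 KD2 libraries lay, for each gene, outside the range of the KD1 libraries, which held for 49.73% of all genes tested.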

How the results depend on the processing

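No member called in the main analysis lost its call or changed direction under DESeq2, its size factors, either filter alternative, the fit of only 2 groups, the replicate block or any left-out library. Asking also for a log2 fold change of 1 or more in size left 0 members called in KD2 against NT, 1 in KDR against KD2, 1 in KDR against NT and 0 in KD2 against KD1. The replicate numbers were not taken to pair libraries: of 18 same-number pairs, 0 had a correlation of deviations over 0.1 across all tested genes (-0.0234 to 0.0394), and 3 did across genes averaging 10 CPM or more (-0.224 to 0.327), a choice made after seeing the data. The fit with the replicate block called 3 members in KD2 against NT, 3 in KDR against KD2, 4 in KDR against NT, 3 in KD2 against KD1 and 0 in KD1 against NT. Members not called could change sign, and the cause was not tested. B2M in KDR against KD2 became 0.0089 with at least 1 CPM in 3 libraries. Over fits that left out 1 library each, its value ran from -0.0325 to 0.0147. Over the same kind of fit, HLA-B in KD1 against NT ran from -0.049 to 0.0791, HLA-DRA from -0.0978 to 0.0492 in KD1 against NT and from -0.1189 to 0.0285 in KD2 against NT, and CIITA from -0.2176 to 0.7607 in KD1 against NT, from -0.1954 to 0.7836 in KD2 against NT and from -0.0571 to 0.1423 in KD2 against KD1. CIITA in KDR against NT ran from 0.74 to 1.72 and was called without NT replicate 2 (adjusted p 0.047), which brought that comparison to 5 members, while at least 1 CPM in 3 libraries removed the gene from the test. Depth limits CIITA, CD74, HLA-DPA1 and HLA-DRB1, whose counts per library are few.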

Other observations

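The genes in this paragraph were chosen after their values were seen. PSMB8, a catalytic subunit of the immunoproteasome, was at 14.4, 21.0 and 15.7 CPM in NT, 19.3, 19.5 and 17.8 in KD2 and 4.97, 5.16 and 5.89 in KDR, and by edgeR it fell in KDR against KD2 by 1.82 on the log2 scale (adjusted p 3.4e-10). PSMB9, its partner subunit, fell by 1.73 in the same comparison (edgeR adjusted p 0.0023), from 1.96 ± 0.42 to 0.593 ± 0.14 CPM (SD, n = 3). HLA-DMB, the partner chain of HLA-DMA, was at 0.969 ± 0.35 CPM in NT, 3.76 ± 0.40 in KD2 and 1.00 ± 0.54 in KDR, a rise of 1.96 in KD2 against NT (edgeR adjusted p 0.0003) and a fall of 1.91 in KDR against KD2 (edgeR adjusted p 0.00044). HLA-DQB1, a polymorphic class II beta chain, varied widely between libraries of a group, at 11.4, 5.21 and 9.64 CPM in KD2 and 9.09, 7.80 and 3.44 CPM in KDR, with 2.55 to 5.98 CPM in NT. Its partner chain HLA-DQA1 had 16 counts in all 12 libraries together.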
